A study of Mus musculus with 3 samples.

Results

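The bone morphogenetic protein (BMP) and transforming growth factor beta (TGF-beta) genes Bmp4, Bmp6, Bmpr2, Acvrl1, Eng, Id1, Id3, Smad6, Smad7 and Grem1 were followed through the vascular niche of mouse bone marrow. These 10 genes, of 31053 measured, were taken by symbol, and each symbol matched 1 row of the tables. Single-cell RNA sequencing with 3′ tags had been run on 3 libraries of sorted tibial marrow, 1 per genotype, in which endothelium had been marked by antibody against VE-cadherin given into the vein and stromal cells by antibody against the leptin receptor LepR. The WT library was wild type, the FLOX library came from Vegfc flox/flox mice and the VC library from Cdh5CreERT2;Vegfc flox/flox mice, in which a Cre recombinase that needs tamoxifen is driven by the promoter of the endothelial gene Cdh5. All mice were C57Bl/6JCrl and all had received tamoxifen by gavage, so controls and deleted mice shared that agent, while no Cre is named for WT or FLOX. How many mice, of which age, stood behind each library and how the gates were set is not stated in the labels.

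BMPs and TGF-betas are secreted dimers that bring together type I and type II receptor kinases, which phosphorylate Smad proteins that enter the nucleus and regulate target genes. In endothelium the type I receptor Acvrl1 (ALK1) acts with Bmpr2 and with the co-receptor endoglin (Eng), and mutations of these genes in humans cause vascular disease. Id1, Id3, Smad6 and Smad7 are classical direct targets, of which the inhibitory Smads 6 and 7 damp the pathway, while Grem1 is a secreted antagonist that binds BMPs outside the cell.

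Barcodes were kept from 500 detected genes upward and up to 10% mitochondrial counts, 4318 of 5718 barcodes in WT, 5734 of 6529 in FLOX and 2738 of 3377 in VC. Sinusoidal cells had at least 1 UMI (unique molecular identifier, 1 per captured transcript) of Cdh5, under 50 of the chemokine Cxcl12 and at least 2 of the sinusoidal scavenger receptor Stab2. They numbered 2992 in WT, 3200 in FLOX and 1643 in VC. Endothelial cells with at most 1 Stab2 UMI, called Stab2-low here, numbered 204, 381 and 197. LepR stromal cells, with at least 50 UMIs of Cxcl12, at least 1 of Lepr or Adipoq and at most 2 of Cdh5, numbered 264, 1107 and 466. Median depth was 11106.5, 7781 and 10745 UMIs per sinusoidal cell in WT, FLOX and VC, 5421, 5765 and 6778 per Stab2-low cell, and 10654, 11315 and 13581.5 per stromal cell. Another 15.8 to 19.9% of the cells fell into none of these classes. Between 3 and 7 kept barcodes were shared by any pair of libraries.

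The marker genes matched the class names for sinusoids and stroma. All 7 sinusoidal markers apart from Stab2 were detected in sinusoidal cells, summing to 7940, 9456 and 10604 CPM (counts per 1000000 UMIs of the class) in WT, FLOX and VC against 1264, 1485 and 1584 in Stab2-low cells. The same list summed to 1931, 2423 and 1863 CPM in stroma, where the adhesion molecule gene Vcam1 made up 1725, 2243 and 1661 CPM. The 8 LepR stromal markers summed to 10362, 8811 and 8472 CPM in stroma and to at most 505 CPM in either endothelial class. The Stab2-low class was a mixture. Of its cells 69, 202 and 96 held at least 3 UMIs of arterial genes such as Sox17 and Gja4. The other 135, 179 and 101 had a pan-leukocyte Ptprc level of 324, 163 and 181 CPM, against 2.39, 32.1 and 63.8 CPM in the arterial-marked cells. Median depth was 3157, 4076 and 3870 UMIs in these unmarked cells and 11144, 6497 and 8917 in the arterial-marked ones. Since the mark is a raw count, it is met more easily by deep cells, and the part of depth was not tested. Neutrophil genes summed to 33468, 23099 and 19878 CPM over the whole Stab2-low class. The differences of the 10 genes between sinusoidal and Stab2-low cells are therefore given below also for the arterial-marked cells alone, a choice made after the data had been seen. The arterial-marked cells were unlike between libraries. Their Sox17 level was 85.0 CPM in WT against 278 in FLOX and 248 in VC. The sinusoidal markers went the other way, with Flt4 at 232, 131 and 135 CPM and Mrc1 at 255, 143 and 115 CPM. The arterial comparisons still take the 3 libraries as replicates. Vegfc itself had 734, 2697 and 1011 UMIs in stroma, 61, 17 and 6 in sinusoidal cells and 5, 10 and 0 in Stab2-low cells of WT, FLOX and VC. These counts are not scaled and do not rank the libraries. The stromal classes held 2980293, 13421303 and 6966228 UMIs in all, the sinusoidal 39099077, 30249780 and 21484106, and the Stab2-low 1648481, 3077039 and 1797185. The labels do not say which exon was floxed, and a 3′ tag outside it would not show the deletion.

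The promoters of both ligands and of 2 targets are printed. Bmp4 and Bmp6 separated between endothelium and stroma. Id3 and Smad6 are the targets with a window in the table used, and neither had a called difference between the classes of the rule. Windows of 300 bases, from 250 before to 50 after the annotated start, were found in the RefSeq promoter table (GRCm38.p6) for 7 of the 10 genes: Bmpr2, Eng, Grem1, Id3, Smad6, Bmp6 and Bmp4. Id1, Acvrl1 and Smad7 are named only. Capitals mark GTCTAGAC, the palindromic motif bound by the TGF-beta Smads, which reads the same on both strands. It was found once, in Smad6 at base 247, which begins 4 bases before the start site, and in 70 of all 32851 promoters, or 0.213%. The BMP Smad motif GGCGCC, another palindrome, was found in the windows of Bmpr2 and Grem1 and in 11.9% of all promoters. The windows lie at chr9:64022010-64022309 (minus strand) for Smad6, chr4:136143572-136143871 (plus strand) for Id3, chr14:46390620-46390919 (minus strand) for Bmp4 and chr13:38345466-38345765 (plus strand) for Bmp6. GC content was 66.3%, 60.0%, 64.0% and 69.3% in that order.
Smad6: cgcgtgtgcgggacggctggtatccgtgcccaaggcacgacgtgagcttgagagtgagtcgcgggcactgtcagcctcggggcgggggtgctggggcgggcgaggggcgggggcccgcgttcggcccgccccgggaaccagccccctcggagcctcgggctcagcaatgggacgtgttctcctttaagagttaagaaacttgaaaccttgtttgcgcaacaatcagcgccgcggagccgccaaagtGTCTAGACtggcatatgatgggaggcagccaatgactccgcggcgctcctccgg
Id3: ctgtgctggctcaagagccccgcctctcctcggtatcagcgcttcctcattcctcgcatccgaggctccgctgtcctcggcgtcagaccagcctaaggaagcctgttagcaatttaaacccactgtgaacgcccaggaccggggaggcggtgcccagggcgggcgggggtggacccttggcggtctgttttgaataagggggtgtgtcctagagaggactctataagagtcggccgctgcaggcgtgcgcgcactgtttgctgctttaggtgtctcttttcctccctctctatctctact
Bmp4: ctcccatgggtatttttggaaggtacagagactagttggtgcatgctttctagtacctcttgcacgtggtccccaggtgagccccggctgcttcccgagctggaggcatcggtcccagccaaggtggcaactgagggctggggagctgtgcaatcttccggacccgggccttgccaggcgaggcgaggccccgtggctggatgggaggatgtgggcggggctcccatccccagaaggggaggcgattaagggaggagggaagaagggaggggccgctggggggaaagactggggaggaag
Bmp6: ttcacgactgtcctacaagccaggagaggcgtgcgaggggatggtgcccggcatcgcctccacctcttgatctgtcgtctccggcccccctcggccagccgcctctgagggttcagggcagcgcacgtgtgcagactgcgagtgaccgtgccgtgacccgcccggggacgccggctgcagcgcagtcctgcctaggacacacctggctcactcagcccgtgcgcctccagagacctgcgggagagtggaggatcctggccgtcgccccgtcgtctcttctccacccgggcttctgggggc
A match or its lack describes these letters only, and no binding was measured.

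The ligands Bmp4 and Bmp6 were both stromal transcripts, and of the pair Bmp4 was also found in sinusoidal cells. Bmp4, a BMP with roles in mesoderm, bone and blood vessels, lies at chr14:46383520-46390669 on the minus strand. It was at 271, 236 and 240 CPM in the stromal cells of WT, FLOX and VC, at 40.4, 38.2 and 45.2 CPM in sinusoidal cells, and at 3.03, 5.52 and 2.78 CPM in Stab2-low cells, where it rested on 5, 17 and 5 UMIs. The ranges of the classes did not overlap, in the order stroma, sinusoids, Stab2-low cells. In edgeR's quasi-likelihood test on UMIs summed per library and class, with the library as block, the log2 difference between sinusoidal and Stab2-low cells was 3.44 (SE 0.22, adjusted p 2.102e-05). Arterial-marked cells held 1, 4 and 3 Bmp4 UMIs, and against them it was 4.26 (SE 0.27, adjusted p 2.198e-06). Between sinusoids and stroma it was -2.58 (SE 0.14, adjusted p 5.016e-07). All 3 libraries showed each direction. The library was the replicate here (n = 3) and the block, so p-values measure how far a class difference varied between these libraries. A shift of a whole library is taken out by the block. Since each library had its own genotype, class differences that vary with genotype are part of that spread.

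Bmp6, best known for its part in iron regulation when made by liver endothelium, lies at chr13:38345107-38500302. In stroma it stood at 290, 228 and 239 CPM, close to Bmp4 in the same cells. In sinusoidal cells it was at 0.614, 1.02 and 0.745 CPM, from 24, 31 and 16 UMIs among 39099077, 30249780 and 21484106. Stab2-low cells held 2, 51 and 31 UMIs, or 1.21, 16.6 and 17.2 CPM, so that the WT library stood apart from FLOX and VC. Of the 31 UMIs in VC, 11 came from a single cell, and 17 from the 21 cells with at least 20 Cxcl12 UMIs. In FLOX 5 of the 51 did. The log2 difference of sinusoidal minus Stab2-low cells was -3.83 (SE 0.58, edgeR adjusted p 0.00124), and that of sinusoids minus stroma -8.30 (SE 0.46, adjusted p 5.539e-07). Against arterial-marked cells, at 2.39, 29.2 and 26.1 CPM, it was -4.64 (SE 0.52, adjusted p 1.068e-04).

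The share of the stromal level that appeared in sinusoidal cells separated the pair of ligands. Bmp6 and the antagonist Grem1 were there at 0.20 to 0.45% of their stromal level. Bmp4 stood at 14.9, 16.2 and 18.9% in WT, FLOX and VC. Among the 8 LepR stromal markers, Foxc1 stood at 7.52, 12.7 and 11.8% and Ebf3 at 2.30, 2.88 and 3.05%. The rest of the 8 were at 1.48% or less. In sinusoidal cells 65.75, 37.3 and 60.75 Bmp4 UMIs were counted per Bmp6 UMI, against 0.936, 1.04 and 1.00 in stroma. Bmp4 UMIs lay in 902, 755 and 502 sinusoidal cells, with at most 12, 12 and 14 in a cell. Of the 1578, 1157 and 972 Bmp4 UMIs there, 273, 50 and 99 lay in cells with 3 or more UMIs of the stromal genes Lepr and Adipoq, and the part of mixed cells or free RNA was not tested. After thinning each cell to 2000 UMIs, 7.20, 7.16 and 7.58% of sinusoidal cells held a Bmp4 UMI, against 30.1, 23.6 and 30.6% unthinned. The thinned share was 32.4, 32.4 and 31.5% in stroma and 0.299, 0 and 0% in B lineage cells (Cd79-positive cells without Cdh5), a class that should lack the gene and had median depths of 5010, 12770 and 7402 UMIs. The 0 of 373 and 0 of 170 B lineage cells in FLOX and VC allow shares of up to 0.804% and 1.76%.

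**Figure D1:**
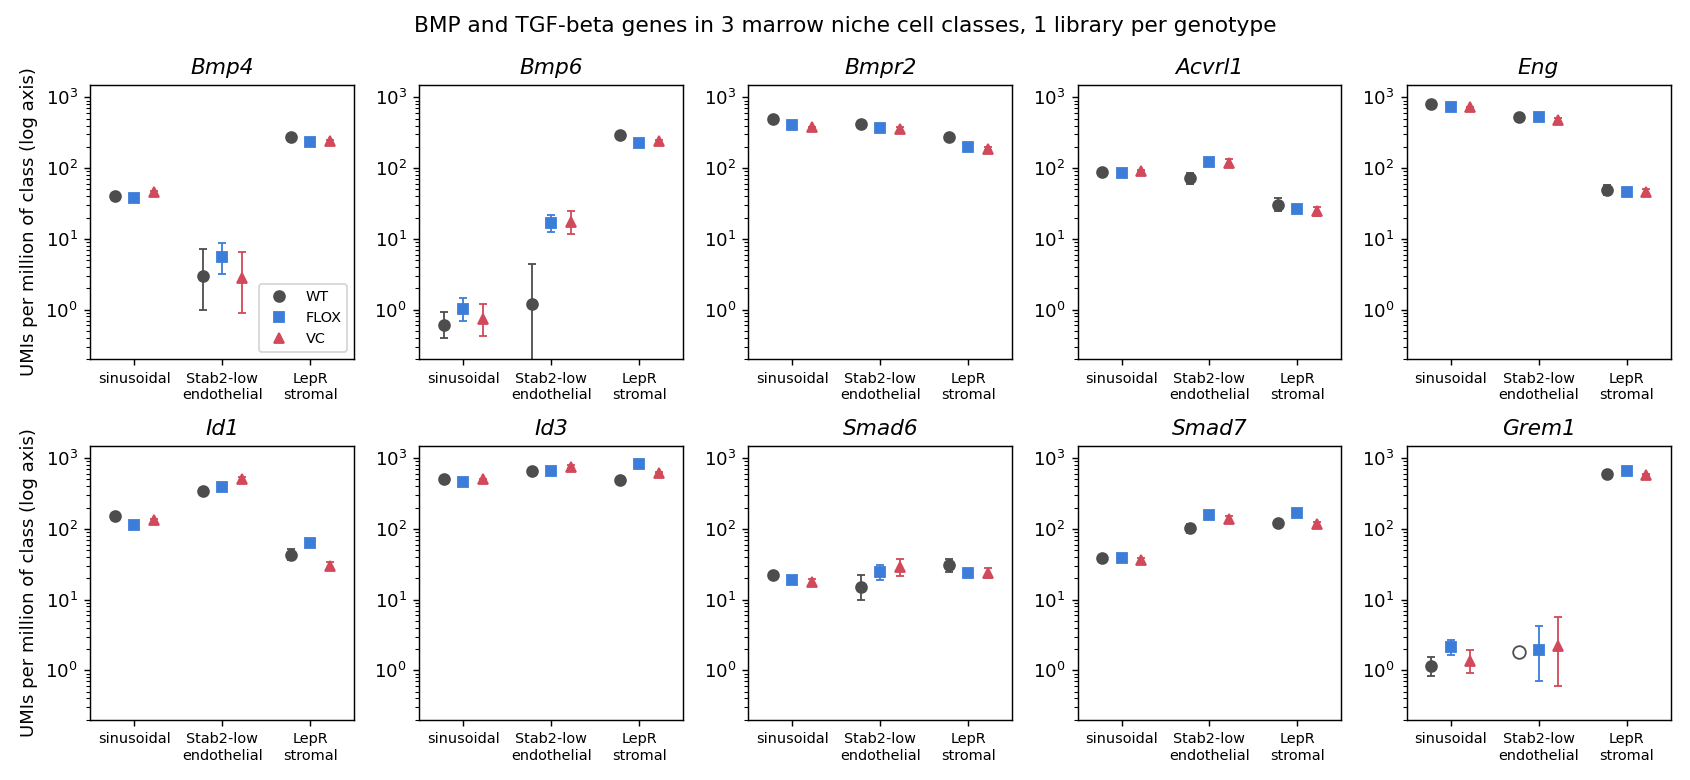
Level of each of the 10 genes in CPM (log axis) in sinusoidal, Stab2-low endothelial and LepR stromal cells of the WT, FLOX and VC libraries; bars are exact 95% Poisson intervals, which cover counting error only, and a library with no UMI is drawn as an open symbol at the limit a count of 0 allows. Bmp4 lies at 236 to 271 in stroma, 38.2 to 45.2 in sinusoids and 2.78 to 5.52 in Stab2-low cells, while Eng falls from 730 to 819 in sinusoids to 45.8 to 49.3 in stroma.

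All 3 receptor genes were higher in both endothelial classes than in stroma, by unequal amounts. Eng, which lies at chr2:32646595-32682669, was at 819, 741 and 730 CPM in sinusoidal cells of WT, FLOX and VC, at 532, 530 and 480 CPM in Stab2-low cells and at 49.3, 46.2 and 45.8 CPM in stroma. The sinusoidal and stromal libraries were far apart, with a log2 difference of 4.04 (SE 0.12, edgeR adjusted p 2.684e-08). The difference between sinusoidal and Stab2-low cells was 0.68 (SE 0.11, adjusted p 0.001617) over ranges that did not overlap. It was 0.13 (SE 0.11, adjusted p 0.459) against the arterial-marked cells alone, where Eng stood at 844, 738 and 637 CPM, while the unmarked cells were at 212, 279 and 266 CPM. It also missed the threshold without the FLOX library, at 0.68 with an adjusted p of 0.0518.

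Acvrl1, at chr15:101128522-101145336, stood at 89.0, 86.2 and 90.8 CPM in sinusoids and at 71.6, 120 and 119 CPM in Stab2-low cells, overlapping ranges with no called difference (-0.11, SE 0.19, edgeR adjusted p 0.674). Without the WT library Acvrl1 was called lower in sinusoids (-0.37, adjusted p 0.0391). In stroma it was at 30.5, 26.7 and 24.4 CPM, lower than in sinusoids by a log2 difference of 1.75 (SE 0.19, adjusted p 5.537e-05). Arterial-marked cells had 120, 192 and 171 CPM, and against them alone sinusoidal cells were lower in Acvrl1, with a log2 difference of -0.79 (SE 0.15, adjusted p 0.002736). Bmpr2, the type II receptor, at chr1:59763400-59879014, had 490, 407 and 379 CPM in sinusoids, 422, 370 and 356 CPM in Stab2-low cells and 277, 201 and 188 CPM in stroma. Sinusoidal cells were above stroma by 0.96 (SE 0.13, adjusted p 1.611e-04), and the endothelial classes overlapped (0.26, SE 0.12, adjusted p 0.139). Against arterial-marked cells, at 668, 544 and 481 CPM, the difference was -0.33 (SE 0.11, adjusted p 0.0538).

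Stromal cells thus kept 49.5 to 56.6% of the sinusoidal Bmpr2 level, 26.9 to 34.3% of that of Acvrl1 and 6.02 to 6.27% of that of Eng. Over 8 pan-endothelial marker genes, among them Pecam1 and Kdr, the same share had a median of 1.22, 0.95 and 0.556% in WT, FLOX and VC, and the highest of the 8 was at 1.46, 1.75 and 1.05%. Each receptor had a higher share than any of these 8 markers. The stromal rule allows at most 2 Cdh5 UMIs, so endothelial RNA in these cells was limited by the choice of cells. The part of mixed cells or free RNA in the receptor counts was not tested. The annotation has overlapping genes or gene models on the other strand at Bmp4 (Gm15217 and Gm15222), Bmp6 (Txndc5 and 4930579J19Rik), Acvrl1 (Gm16031) and Eng (Fpgs), and on the same strand at Bmpr2 (Gm38125) and Eng (Mir1954, Gm47291 and Gm26236). No label says whether the counting used strand, so reads of these partners may be among the counts.

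The targets did not share 1 pattern. Id1, an inhibitor of helix-loop-helix transcription factors, at chr2:152736251-152737410, was at 344, 389 and 510 CPM in Stab2-low cells of WT, FLOX and VC, at 151, 114 and 132 CPM in sinusoids and at 43.3, 62.7 and 29.9 CPM in stroma. The 3 classes did not overlap. The log2 difference of sinusoids was -1.54 (SE 0.28, edgeR adjusted p 0.002991) to Stab2-low cells and 1.57 (SE 0.29, adjusted p 0.001295) to stroma. In arterial-marked cells Id1 reached 614, 631 and 812 CPM, against 66.4, 97.4 and 101 CPM in the unmarked cells, and the difference of sinusoids to them was -2.30 (SE 0.24, adjusted p 6.752e-05).

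Id3, its close relative, at chr4:136143497-136145755, was high in every class, at 502, 464 and 505 CPM in sinusoids, 649, 647 and 756 CPM in Stab2-low cells and 488, 828 and 617 CPM in stroma. No class difference was called (adjusted p of 0.142, 0.115 and 0.978), but sinusoids were called lower than Stab2-low cells after thinning (-0.59, adjusted p 0.0368) and without the 5% deepest cells (-0.55, adjusted p 0.0277). Against arterial-marked cells, which had 1084, 936 and 1055 CPM, sinusoids had a log2 difference of -0.99 (SE 0.18, edgeR adjusted p 0.002494). The number of Id1 UMIs per Id3 UMI was 0.301, 0.245 and 0.261 in sinusoids, 0.530, 0.600 and 0.675 in Stab2-low cells and 0.0888, 0.0757 and 0.0484 in stroma. These ranges did not overlap, and they describe unequal change of the pair between classes, since capture of each gene is its own. Id3 is also used by other marrow cells: 13.5, 8.85 and 8.24% of B lineage cells held an Id3 UMI after thinning, against 51.2, 48.5 and 50.4% of sinusoidal cells.

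Smad7, which blocks receptor Smads of both branches, was at 101, 155 and 136 CPM in Stab2-low cells and 122, 166 and 117 CPM in stroma, overlapping ranges, and at 38.3, 38.8 and 36.5 CPM in sinusoids, below both. The log2 difference of sinusoids was -1.66 (SE 0.15, edgeR adjusted p 9.483e-05) to Stab2-low cells and -1.80 (SE 0.15, adjusted p 7.356e-06) to stroma. Smad6, which acts mainly on the BMP branch, at chr9:63953076-64022059, was low everywhere, at 22.1, 19.1 and 17.9 CPM in sinusoids, 15.2, 24.4 and 28.9 CPM in Stab2-low cells and 30.9, 23.9 and 23.8 CPM in stroma, with no called difference (adjusted p of 0.697, 0.141 and 0.424). Arterial-marked cells had 19.1, 39.9 and 45.4 CPM of Smad6, and the log2 difference of sinusoids to these was -0.80 (SE 0.24, adjusted p 0.03165). Smad6 had 1, 0 and 1 UMIs in all B lineage cells. Smad7 was found after thinning in 14.1, 11.3 and 14.1% of them, above its 6.86, 7.60 and 6.36% in sinusoidal cells, so Smad7 was not a gene of endothelium or stroma alone. In the unmarked Stab2-low cells it stood at 67.7, 74.5 and 72.2 CPM, below the 134, 223 and 184 CPM of the arterial-marked cells.

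The antagonist Grem1, at chr2:113746164-113758646 on the minus strand, was a stromal transcript. It stood at 588, 657 and 580 CPM in stroma and at 1.15, 2.12 and 1.35 CPM in sinusoids. Stab2-low cells had 0, 6 and 4 Grem1 UMIs, and the 0 in WT allows up to 1.82 CPM. The log2 difference of sinusoids to stroma was -8.63 (SE 0.29, edgeR adjusted p 3.789e-08), and the endothelial classes were not called apart (adjusted p 0.832). After thinning, 52.3, 64.2 and 59.8% of stromal cells held a Grem1 UMI, against 0.235 to 0.428% of sinusoidal cells and 0.268 to 0.588% of B lineage cells. The sinusoidal share overlapped that of the B lineage class, so no Grem1 expression is read from it. Of the 45, 64 and 29 Grem1 UMIs in sinusoidal cells of WT, FLOX and VC, 7, 3 and 12 lay in cells with 3 or more UMIs of Lepr and Adipoq. Against arterial-marked cells, with 0, 2 and 2 UMIs, the difference was not called either (0.57, SE 0.67, adjusted p 0.625).

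Among the 10 genes 2 were called higher and 3 lower in sinusoidal than in Stab2-low cells, where 37.3% of the 13389 genes tested were called, 20.8% higher and 16.5% lower. Against stroma 4 were higher and 4 lower in sinusoids, with 59.8% of genes called, 29.9% in each direction. Between Stab2-low cells and stroma 4 were higher and 3 lower, with 55.5% called, 26.6% higher and 28.9% lower. Against the arterial-marked cells alone sinusoids had 1 of the 10 higher and 6 lower, with 12.6% of 13166 genes higher and 11.9% lower. Calls were common among all genes in each comparison, and 5 of 10 between the endothelial classes is near that background. The median absolute log2 difference was 0.52 for the 10 genes and 0.42 for all genes between the endothelial classes, 1.77 and 0.59 between sinusoids and stroma, and 2.49 and 0.64 between Stab2-low cells and stroma.

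**Figure D2:**
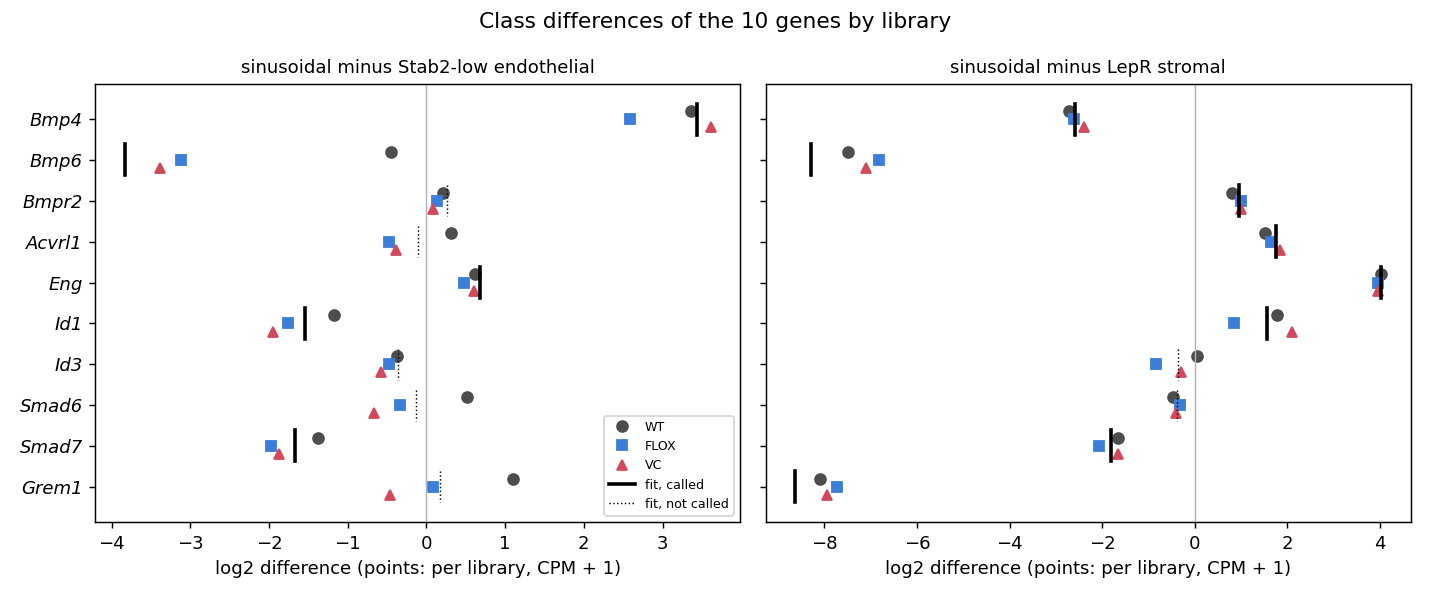
Log2 difference of each gene between sinusoidal and Stab2-low cells (left) and between sinusoidal and stromal cells (right); points are the 3 libraries, from CPM + 1, and vertical strokes the edgeR estimate, solid where the adjusted p was under 0.05 and dotted otherwise. The WT point of Bmp6 on the left lies at -0.46 against -3.12 in FLOX and -3.39 in VC, and Acvrl1 and Smad6 have WT on the other side of 0 from FLOX and VC.

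Endothelial cells were also binned by their Stab2 count, the same value that separates sinusoidal from Stab2-low cells. Cells with at most 1 Stab2 UMI are the Stab2-low class, and the higher bins are the sinusoidal class. A change from the lowest to the top bin therefore repeats the class difference and is no separate test of it. Only bins within a class go beyond that difference. From cells with no Stab2 UMI to cells with 10 or more, Bmp4 went from 0.951 to 44.2 CPM in WT, from 1.28 to 41.9 CPM in FLOX and from 2.27 to 47.5 CPM in VC. In cells with 2 to 4 Stab2 UMIs it was at 24.9 CPM in FLOX and 20.6 CPM in VC but at 3.02 CPM in WT. Id1 was lowest in the top bin of each library, at 128, 104 and 111 CPM. Its highest level was 447 and 527 CPM in WT and VC cells with 1 Stab2 UMI and 416 CPM in FLOX cells with none. Smad7 fell from 109, 170 and 112 CPM in cells without Stab2 to 33.8, 35.3 and 30.7 CPM in the top bin. In VC its highest value was 205 CPM in the 60 cells with 1 Stab2 UMI.

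Id3 peaked in each library in cells with 1 Stab2 UMI, at 886, 784 and 956 CPM, and fell to 473, 417 and 454 CPM in the top bin. Eng went from 439, 481 and 418 CPM in cells without Stab2 to 829, 747 and 746 CPM in the top bin, with 697, 686 and 651 CPM already in cells with 1 UMI. Ptprc was highest in the lowest bin, at 218, 105 and 119 CPM against 60.3, 47.5 and 97.3 CPM with 1 Stab2 UMI. Depth also differed between the bins, with medians of 5773, 6202.5 and 7068 UMIs per cell without Stab2, 4194, 4476 and 5186 with 1 Stab2 UMI and 11822, 9688 and 12333 in the top bin, and its part was not tested. Between 2 to 4 and 10 or more Stab2 UMIs, all of them sinusoidal by the rule, Id1 still went from 363 to 128 CPM in WT, from 190 to 104 in FLOX and from 321 to 111 in VC.

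**Figure D3:**
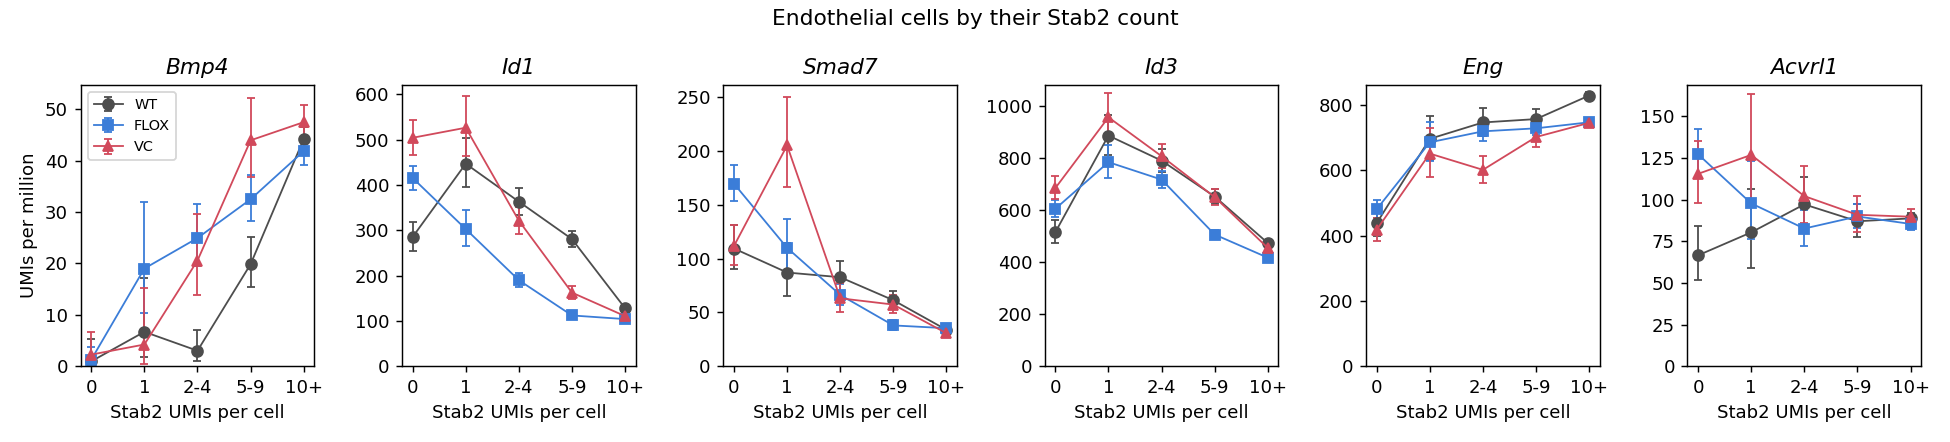
Level of 6 of the genes in CPM in endothelial cells of the 3 libraries, binned by the Stab2 UMIs per cell (0, 1, 2 to 4, 5 to 9, 10 or more); bars are exact 95% Poisson intervals. Bmp4 is higher in the top bin, at 41.9 to 47.5, than in cells without Stab2, while Id1 and Smad7 are lower in the top bin.

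Within sinusoidal cells Id3 and, in WT and FLOX, Smad7 were higher in cells with an Id1 UMI, and Smad6 was not beyond counting error. Cells with at least 1 Id1 UMI after thinning to 2000 UMIs, 583, 496 and 313 in WT, FLOX and VC, were set beside 2391, 2675 and 1323 cells with none. Id3 was 1.83, 1.75 and 1.79 times as high in the Id1 cells, and Smad7 2.05, 2.13 and 1.51 times, the last with a counting interval of 0.960 to 2.32. For Smad6 the ratio was 0.722 (0.418 to 1.18), 1.39 (0.849 to 2.20) and 1.06 (0.492 to 2.08). The receptors differed less: the ratio was 1.01, 1.15 and 1.02 for Eng, 1.17, 0.859 and 1.14 for Acvrl1 and 1.08, 1.02 and 1.01 for Bmpr2. Summed immediate early genes such as Fos and Jun, which respond to many stimuli and to tissue handling, were 1.44, 1.54 and 1.43 times as high, and their part in the pattern was not tested.

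In Stab2-low cells the Id1 cells had 3.03, 2.17 and 2.05 times the Id3 level, but also 2.16, 1.28 and 1.51 times that of the endothelial gene Pecam1, so the share of endothelial RNA moved with it. In stroma, where 29, 110 and 14 cells held Id1, the Id3 ratio was 0.849, 1.15 and 0.932, and the counting intervals included 1 in each library. Cells are not replicates, and these ratios describe the libraries.

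**Figure D4:**
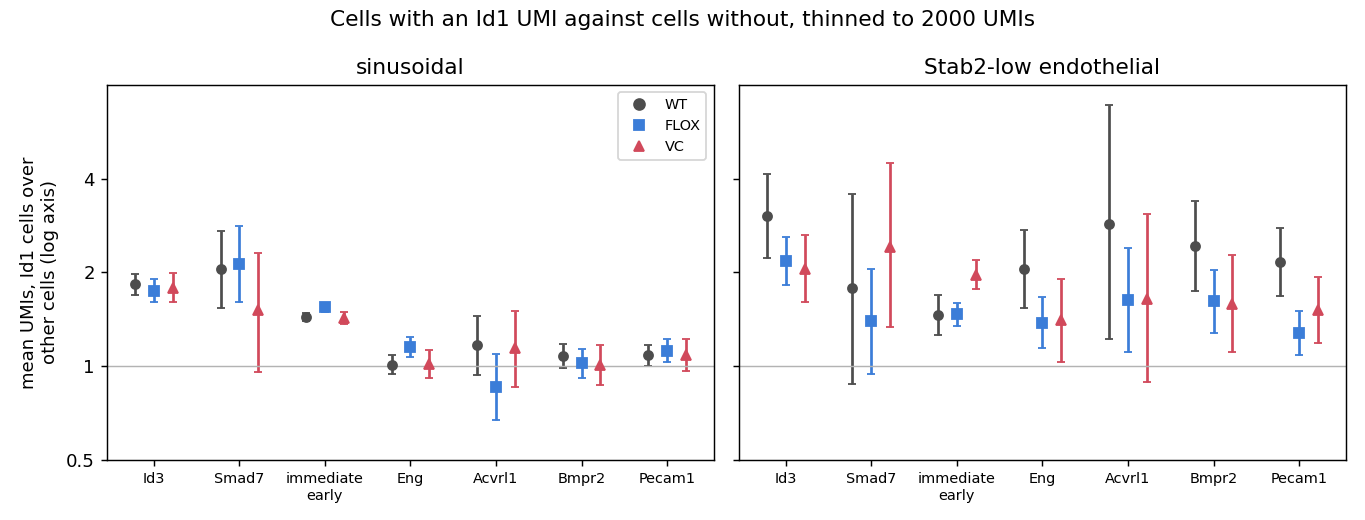
Ratio of mean UMIs per cell between cells with and without an Id1 UMI (log axis), after thinning each cell to 2000 UMIs, for 5 of the 10 genes, the summed immediate early genes and Pecam1, in sinusoidal (left) and Stab2-low (right) cells of each library; bars are 95% intervals of counting error. In sinusoids Id3 lies at 1.75 to 1.83 and Bmpr2 at 1.01 to 1.08.

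Around the 10 genes, 67 others of the 2 pathways had been listed by role, and 50 had enough counts to be tested. Against stroma 13 of the 50 were higher and 29 lower in sinusoids (median log2 difference -1.28, all genes -0.00). Over all genes tested 29.9% were called in each direction. The secreted antagonists and latency proteins were the most one-sided group, with 10 of 11 lower and 1 higher (median -7.18). Fst, which traps activins, stood at 396, 396 and 477 CPM in the stroma of WT, FLOX and VC against 0.435, 0.562 and 0.652 CPM in sinusoids, a log2 difference of -9.57 (SE 0.19, edgeR adjusted p 1.283e-08). The BMP antagonist Chrdl1 was at 1296, 976 and 950 CPM in stroma and at 1.51 to 2.25 CPM in sinusoids (-9.25, SE 0.41, adjusted p 1.484e-07).

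Of 11 further ligands 7 were lower and 4 higher in sinusoids than in stroma. Bmp5 was far lower in sinusoids, with a stromal level of 183, 124 and 109 CPM and a sinusoidal level of 0.205, 0.463 and 0.0931 CPM (-9.02, edgeR adjusted p 3.789e-08). The activin subunit gene Inhbb had the opposite order, at 80.7, 73.0 and 84.6 CPM in sinusoids against 8.72, 3.35 and 3.16 CPM in stroma (4.21, adjusted p 8.742e-07). Ltbp2, of the latent TGF-beta binding protein family, was lower (-8.72), while the extracellular protein gene Tgfbi (3.81), the target Id2 (2.51) and the pseudoreceptor Bambi (2.43) were higher in sinusoids. Among 11 further receptors 2 were higher and 6 lower, among 10 transducers 4 and 2, and among 7 targets 2 and 4. Of all genes tested 59.8% were called in this contrast, and no result is read from the counts of these small groups.

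Between the endothelial classes 17 of the 50 listed genes were higher in sinusoids and 11 lower (median 0.19, all genes 0.09). Over all genes tested 20.8% were called higher and 16.5% lower. Transducers and regulators had 6 of 10 higher and 1 lower, with the BMP receptor Smad gene Smad5 at 256, 231 and 262 CPM in sinusoids and 118, 86.8 and 80.1 CPM in Stab2-low cells (1.53, SE 0.12, edgeR adjusted p 4.614e-05). The co-receptor Tgfbr3 (1.92), Tgfbi (2.32) and Ctgf (2.98), an extracellular gene that TGF-beta induces, were higher in sinusoids too. On the lower side, the ligand Tgfb2 was at 0.818, 1.45 and 0.977 CPM in sinusoids and at 3.03, 67.6 and 61.2 CPM in Stab2-low cells (-5.11, SE 0.69, adjusted p 6.682e-04). The latency protein gene Ltbp4 was at 30.6, 33.1 and 22.5 CPM against 142, 285 and 241 CPM (-2.78, SE 0.31, adjusted p 2.415e-04). Hey1 (-5.05), an arterial Notch and BMP target, and Fstl1 (-2.52), an extracellular follistatin relative, were lower as well. For Tgfb2, Hey1 and Bmp6 the WT library had the lowest Stab2-low level. Against arterial-marked cells alone the listed genes named here kept their direction and their call, with Ctgf at 5.28, Tgfbi at 4.48, Tgfbr3 at 1.73, Smad5 at 1.38, Fstl1 at -3.18, Ltbp4 at -3.58 and Tgfb2 at -5.98.

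Stab2-low cells set against stroma gave 13 of 50 listed genes higher and 26 lower (median -1.0, all genes -0.04). Over all genes tested 26.6% were called higher and 28.9% lower. Ltbp4 (4.96), Inhbb (3.62), the TGF-beta type II receptor gene Tgfbr2 (2.23) and the ligand gene Tgfb1 (2.08) led the higher genes by the naming rule. The lower ones were led by Fst (-9.16), Bmp5 (-8.28), Chrdl1 (-7.99) and Ltbp2 (-7.71). Tgfbr2 was at 351, 368 and 366 CPM in Stab2-low cells of WT, FLOX and VC, 301, 264 and 270 CPM in sinusoids and 75.5, 68.4 and 72.5 CPM in stroma.

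Whether deletion of Vegfc in endothelium changed these genes could be described but not tested, since each genotype had 1 library and no replicate. A rule of size took the place of a test. It asked for a mean of 50 CPM or more and 50 UMIs or more, and for a change of 1.5-fold or more in VC against each control in the same direction, exceeding the difference of the controls. None of the 10 genes met it in any class. In sinusoids 1.84% of 3415 genes did, 1.79% higher and 0.0586% lower in VC. In Stab2-low cells 3.85% of 3406 did, 1.97% higher and 1.88% lower, and in stroma 1.05% of 3345, 0.897% higher and 0.149% lower. Only 5, 6 and 6 of the 10 reached the minimum level in the 3 classes in that order. The VC library also stood apart in 6 interferon response genes such as Cxcl9, which summed to 7641 CPM in its sinusoids against 901 in WT and 841 in FLOX. How far that bears on the values below was not tested.

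In sinusoids the ratios of VC to each control lay near 1. Bmp4 was at 1.12 of WT and 1.18 of FLOX, Eng at 0.891 and 0.986, Acvrl1 at 1.02 and 1.05, and Id3 at 1.00 and 1.09. Bmpr2 was at 0.773 of WT (counting interval 0.753 to 0.794) but 0.930 of FLOX, and FLOX was itself at 0.831 of WT. Id1 moved in opposite directions against the controls, at 0.870 of WT and 1.16 of FLOX. Smad6 stood at 0.810 and 0.934, and Smad7 at 0.954 and 0.942.

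In Stab2-low cells Id1 was at 1.48 of WT (1.33 to 1.65) and 1.31 of FLOX (1.20 to 1.43), below the size asked for. The arterial-marked cells, which carried most of the Id1 as given above, made up different shares of the class by library. In them alone the log2 ratio was 0.40 to WT and 0.36 to FLOX. Summed immediate early genes went the same way in this class, summing to 2289, 3452 and 4909 CPM by library in that order, and their part in the difference was not tested. Acvrl1 was at 1.66 of WT (1.32 to 2.09) but 0.986 of FLOX, and Smad7 at 1.35 of WT and 0.878 of FLOX. These differences set WT apart from both floxed libraries.

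In stroma Id1 was at 0.690 of WT (0.551 to 0.866) and 0.477 of FLOX (0.407 to 0.555), with a mean of 45.3 CPM, under the minimum. FLOX was at 1.45 of WT. The thinned share of stromal cells with an Id1 UMI was 11.1, 9.95 and 3.02% in WT, FLOX and VC, with exact 95% intervals of 7.54 to 15.5, 8.25 to 11.9 and 1.66 to 5.02%, against at most 0.536% of B lineage cells. Pan-endothelial genes in these stromal cells summed to 56.7, 39.9 and 17.7 CPM, also lowest in VC but highest in WT, where Id1 was highest in FLOX. Their part in the Id1 values was not tested. Id3 was at 1.27 of WT and 0.745 of FLOX, and Smad7 at 0.954 and 0.703, so VC lay between the controls for Id3. Bmp4, Bmp6 and Grem1 lay within 0.827 to 1.05 of either control. Of the 67 other pathway genes only Acvr2a, a type II receptor for activins and BMPs, met the rule, in stroma, at 150, 112 and 71.5 CPM, or 0.478 of WT (0.420 to 0.544) and 0.637 of FLOX (0.574 to 0.705). Of the 67 only 17, 13 and 21 reached the minimum level in sinusoids, Stab2-low cells and stroma, in that order. Among all 3345 genes at that level in stroma, 0.149% met the rule as lower in VC.

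**Figure D5:**
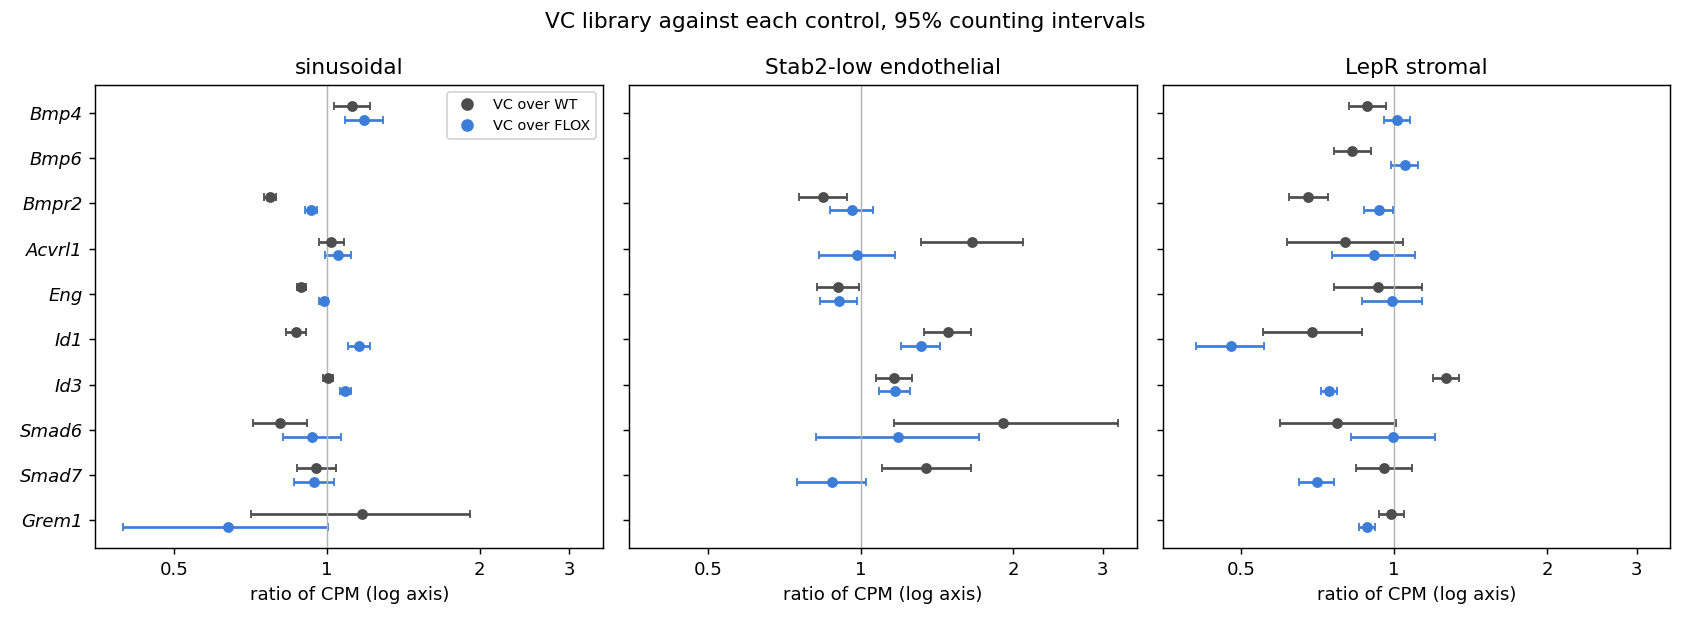
Ratio of CPM in the VC library to that in WT (grey) and in FLOX (blue) for the 10 genes in each class (log axis), with 95% intervals of counting error; genes with under 20 UMIs in any library of a class are not drawn. Id1 is above 1 against both controls in Stab2-low cells, at 1.48 and 1.31, and below 1 against both in stroma, at 0.690 and 0.477.

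The genes most like each member over the 9 class and library sums, by Pearson correlation of log2(CPM + 1) among the 3562 genes whose mean reached 50 CPM, followed the class pattern. For Grem1 they were Esm1, Adipoq and Gas6 (r of 0.999, 0.998 and 0.998), and for Bmp6 Fbn1, Ogn and Serping1 (1.00, 0.997 and 0.997). Adipoq is part of the rule for stromal cells, so its match to a stromal gene was partly set by that rule and is no result. Eng was closest to Sft2d2, Tanc1 and Clcn3 (0.999 for each), and Id1 to Tspan12, Cd34 and Luzp1 (0.993, 0.982 and 0.979). Bmp4 had Igsf10, Deptor and Igfbp4 (0.991, 0.989 and 0.989), Acvrl1 had Stc1, Jcad and Icam2 (0.989, 0.985 and 0.983) and Bmpr2 had Pik3c2a, Xpr1 and Kcnq1ot1 (0.996, 0.992 and 0.989). For Smad7 they were Map4, Fut8 and S100a10 (0.984, 0.981 and 0.981). Id3, with Srp19, Arpc1a and Eif1 (0.940, 0.936 and 0.922), and Smad6, with Dcn, Apod and Arhgap5 (0.871, 0.865 and 0.846), had the loosest matches. The 9 sums share 3 classes and 3 libraries, so these values describe the table.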

How the data were processed

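The deposited files hold raw UMI counts per gene and barcode, 1 filtered matrix per library, which the authors had not normalised. Per the submitters' processing notes the build was mm10 and the tools included Seurat 3.1 and Cell Ranger 2.1.1. Per the file headers the matrices came from software 3.1.0, and the sources do not settle which made the counts. Libraries held 56853574 (WT), 61758462 (FLOX) and 37361779 (VC) UMIs, and intervals and floors (3 counts) cover counting error only. No doublet caller was run: the class limits and the alternatives stand in for one. Counts were summed per library and class and expressed per 1000000 UMIs of the class (CPM). Class differences were tested with edgeR 4.0.16 (R 4.3.3; quasi-likelihood, TMM, filterByExpr, library as block), called at an adjusted p under 0.05 after Benjamini-Hochberg adjustment over all 13389 genes tested, and the script was tested on simulated data. DESeq2 1.42.0 was an alternative, beside other cell limits, scaling, thinning and leaving out each library. Ratios between genotypes have exact conditional Poisson 95% intervals and no test; shares have Clopper-Pearson intervals. Cells under 2000 UMIs (1 to 40 per class and library) were left out of thinned shares. Other tools were Python 3.11.15 with numpy 2.4.6, scipy 1.17.1 and pandas 2.3.3.

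The 10 genes, the 67 listed pathway genes and the marker lists were chosen with earlier results of these data known. Beside the 10, the text names in each class contrast the 4 listed genes with the largest called difference in each direction at a mean of at least 20 CPM in 1 class, every listed gene past the rule of size, and for each of the 10 the 3 most similar genes. Gene positions are from GENCODE on GRCm38. Genes used to define the classes or the arterial mark are not reported as results there. Hey1 is part of the arterial mark, and Adipoq, named among the similar genes, is part of the stromal rule.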

Additional observations from a re-analysis of the deposited data

Results flagged for a closer look

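Id1 differed from both controls in opposite directions in separate classes of the VC library. In Stab2-low endothelial cells its ratio was 1.48 to WT and 1.31 to FLOX, and in LepR stromal cells 0.690 to WT and 0.477 to FLOX. It drew attention because VC lay above both controls in 1 class and below both in the other. The difference between the classes was not tested, since each genotype had 1 library. In sinusoidal cells the ratios were 0.870 and 1.16, on both sides of 1. The stromal values rest on 129, 841 and 208 UMIs in WT, FLOX and VC, and the Stab2-low values on 567, 1196 and 917. With blood-marked cells left out by the planned list, the Stab2-low log2 ratios of Id1 were 0.13 to WT and 0.23 to FLOX. After thinning the log2 ratio to WT was 1.02, so its size depended on the processing. No alternatives were computed for the stromal ratios, since Id1 lay under the minimum level there.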

How the results depend on the processing

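Each class difference was computed under 18 alternatives, and 486 of 540 values kept their direction and their side of the threshold. Bmp4, Bmp6, Id1 and Smad7 did so under all 18 between sinusoidal and Stab2-low cells, with log2 ranges of 1.75 to 4.81, -4.64 to -3.15, -2.30 to -1.30 and -2.16 to -1.43, as did the 8 genes called against stroma. Scaling by class totals in place of TMM moved the median of all genes by -0.11 between the endothelial classes. The class differences had the library as block, and without it no call of the 10 genes changed. For the genotypes: No paired analysis was possible because each had 1 library, so no replicate numbers pair samples between them.

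Of the 2 genes higher in sinusoidal than in Stab2-low cells, 1 was left with marked blood cells left out by either list, with arterial-marked cells only, after thinning and without FLOX (leave-one-out range 1 to 2), the loss being Eng. The lower genes became 5 with the planned blood cell list and 6 with the added list or with arterial-marked cells only. All genes called between these classes became 1216 (planned list), 3310 (added list), 3233 (arterial-marked only) and 1799 (thinned), with 2293 to 4476 on leaving out a library. Those between sinusoids and stroma became 3128 (planned list) and 5012 (thinned), and 5616 to 8294 without a library. Those between Stab2-low cells and stroma became 2583, 4026 and 4947 to 7111. The planned list held Ebf1, a gene that stromal cells carry, and left 8, 47 and 18 stromal cells. Genes past the size in VC became 38, 61 and 18 at 2-fold and 651, 841 and 450 with no minimum level, in sinusoids, Stab2-low cells and stroma. Thinning gave 229 in Stab2-low cells and 73 in stroma, and the planned list 118 in stroma.

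Some calls were gained. Id3 was called lower in sinusoidal than in Stab2-low cells with Stab2 cut at 5 (-0.53, adjusted p 0.0433), without the 5% deepest cells (-0.55, 0.0277), thinned (-0.59, 0.0368), with the planned list (-0.73, 0.00405), the added list (-0.89, 0.00123) and arterial-marked cells only (-0.99, 0.00249). Against stroma it was called lower in sinusoids with the planned list (-0.55, 0.0281), without the deepest cells (-0.42, 0.0488) and thinned (-0.51, 0.0302). Stab2-low cells were called above stroma in Id3 with the added list (0.52, 0.0151) and with arterial-marked cells only (0.56, 0.0241). Acvrl1 was called lower in sinusoidal than in Stab2-low cells with the planned list (-0.51, 0.0269), the added list (-0.65, 0.00444), arterial-marked cells only (-0.79, 0.00274) and without WT (-0.37, 0.0391). Smad6 was called lower there with the added list (-0.64, 0.0241) and arterial-marked cells only (-0.80, 0.0317), and below stroma with Stab2 cut at 5 (-0.38, 0.0293) and the added list (-0.38, 0.0346). Smad7 was called lower in Stab2-low cells than in stroma with Stab2 cut at 5 (-0.46, 0.00879). All are edgeR adjusted p-values.

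Differences that changed sign had not been called, and the cause was not tested. Between sinusoidal and Stab2-low cells Bmpr2 became -0.30, -0.26, -0.33 and -0.10 (planned list, added list, arterial-marked only, thinned). Acvrl1 became 0.006 with no filter on low counts and 0.007 with Cxcl12 cut at 20, and -0.37 to 0.021 without a library. Smad6 became 0.17 with Cxcl12 cut at 20 and -0.44 to 0.15 without a library. Grem1 became -0.20 and -0.023 with Stab2 cut at 1 and 5, -0.57 with the planned list, -0.40 thinned, and -0.13 to 0.58 without a library. Between Stab2-low cells and stroma Id3 became -0.04 with no filter, -0.004 with no library block, -0.15 with Stab2 cut at 1, -0.029 with Cxcl12 cut at 20 and -0.14 to 0.28 without a library. Smad6 became 0.29, 0.25, 0.37 and 0.23 (planned list, added list, arterial-marked only, thinned) and -0.52 to 0.15 without a library. Smad7 became 0.24, 0.20 and 0.30 (planned list, added list, arterial-marked only) and -0.31 to 0.071 without a library. Of 510 ratios between genotypes 82 moved beyond their counting interval. The added list and the arterial-marked cells were chosen after the data had been seen.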

Other observations

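Other genes of the pathway also differed between endothelial cells without Stab2 and those with 10 or more Stab2 UMIs. Smad1 and Smad5, the receptor Smads of the BMP branch, went from 78.9, 78.2 and 104 CPM and from 97.0, 70.9 and 64.2 CPM in WT, FLOX and VC cells without Stab2 to 209, 202 and 236 CPM and to 264, 243 and 271 CPM in cells with 10 or more UMIs. The targets Id1 and Id2 had opposite directions between these ends: Id2 went from 62.8, 107 and 69.5 CPM to 156, 158 and 162 CPM, with the highest VC value, 184 CPM, in cells with 1 Stab2 UMI. The ligand Bmp2 went from 16.2, 41.0 and 52.1 CPM to 52.4, 59.2 and 75.9 CPM, but was lower in between in FLOX and VC, at 36.7 and 27.7 CPM in cells with 2 to 4 Stab2 UMIs. The end bins lie in the Stab2-low and the sinusoidal class, so changes between them repeat the split of the classes and are no separate test. These bins also differ in depth and in Ptprc, whose part was not tested.

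The number of Eng UMIs per Acvrl1 UMI was 9.21, 8.59 and 8.04 in sinusoids, 7.43, 4.41 and 4.05 in Stab2-low cells and 1.62, 1.73 and 1.88 in stroma of WT, FLOX and VC. The ranges of the classes did not overlap, so the co-receptor and its type I receptor did not change in step between classes. The number of Smad7 UMIs per Smad6 UMI was 1.74, 2.03 and 2.04 in sinusoids and from 3.96 to 6.93 in the other classes.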
